A study of Mus musculus with 6 samples.

Results

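Small nucleolar RNAs (snoRNAs) guide chemical modification of ribosomal RNA, box C/D snoRNAs directing ribose methylation and box H/ACA snoRNAs directing pseudouridylation. In mammals most of them are cut out of introns, and a class of host genes makes spliced transcripts that code for no known protein and seem to serve mainly to deliver the intronic snoRNAs. Such host transcripts often begin with a run of pyrimidines, the 5′ terminal oligopyrimidine (TOP) tract that ribosomal protein mRNAs also carry. They are bound by ribosomes and degraded by nonsense-mediated decay, so that growth signals acting on translation also change their abundance. In T cells, activation is accompanied by strong ribosome production, and Gas5 was first described as a transcript that accumulates in growth-arrested cells.

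8 non-coding snoRNA host genes, Gas5, Snhg1, Zfas1, Snhg5, Snhg8, Snhg12, Snhg6 and Snhg3, were taken by name from the reference genes in the deposited tables, out of 47643 reference genes in all. 7 were found by their deposited name. The remaining one, Zfas1, is listed under an older symbol, Zfos1, and was matched by its Ensembl identifier. GENCODE M21 gives 6 of these genes the biotype processed transcript and Snhg12 and Snhg6 the biotype lincRNA, and each holds at least 1 annotated snoRNA on its own strand. All 8 passed the filter on low values, FPKM 1 or higher in no fewer than 3 libraries, which left 12186 genes to test. FPKM scales a gene's fragments to its transcript length and to 1000000 sequenced fragments.

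The measurements are RNA sequencing of natural regulatory T cells (nTregs) from spleens of C57BL/6 mice carrying Foxp3-DTR/EGFP, an allele that makes Foxp3-expressing cells carry the diphtheria toxin receptor and a green fluorescent protein. All cells were activated for 2 days with plate-bound anti-CD3, soluble anti-CD28 and IL-2. 3 libraries came from cells then kept for 6 h with the vehicle DMSO, and 3 from cells kept for 6 h with 100 nM of an agonist of EP4, a prostaglandin E2 receptor that raises cyclic AMP. The GFP-positive cells were sorted before RNA extraction and stranded poly(A) library preparation, and nothing in the labels ties a replicate to its own mouse or culture, so p-values measure a spread between libraries that may be technical.

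The constant ratio of deposited coverage to FPKM would correspond to 4.32 to 5.65 gigabases of aligned sequence per library. This holds only if coverage is the mean number of reads over a base, which the sources used here do not state. Markers of regulatory T cells were present in all 6 libraries, Foxp3 at 109 to 154 FPKM and Il2ra at 786 to 937 FPKM. Ms4a1 (B cells), Adgre1 and Csf1r (macrophages) and Ncr1 (NK cells) did not exceed 0.117 FPKM, and Ms4a1 and Csf1r were at 0 in some libraries. The CD8 chain gene Cd8b1 was at 3.45 to 6.20 FPKM while Cd8a stayed at or below 0.506 FPKM. Annotated ribosomal RNA took 0.372 to 0.709% of the summed FPKM in 5 libraries and 1.104% in agonist replicate 2.

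The host genes are shown first by the sequence around their start, because the pyrimidine run there is what groups such transcripts with ribosomal protein mRNAs. The sequences are RefSeq's for GRCm38.p6, which has an entry for 7 of the 8 genes and 2 for Gas5; Snhg6 has none. Each line runs 5′ to 3′ on the gene's strand from 40 bases before the annotated start to 30 bases from it onward. Capitals mark the longest unbroken run of C and T with a base within 5 bases of the start.
Gas5 (upstream start): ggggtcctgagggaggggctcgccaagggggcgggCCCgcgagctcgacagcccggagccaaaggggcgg
Gas5 (downstream start): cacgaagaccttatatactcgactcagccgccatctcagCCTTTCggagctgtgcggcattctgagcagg
Snhg1: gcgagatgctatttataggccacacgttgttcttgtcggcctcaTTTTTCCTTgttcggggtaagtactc
Zfas1: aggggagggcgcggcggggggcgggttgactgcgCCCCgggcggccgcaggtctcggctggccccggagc
Snhg5: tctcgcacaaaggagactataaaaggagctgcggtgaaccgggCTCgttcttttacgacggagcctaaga
Snhg8: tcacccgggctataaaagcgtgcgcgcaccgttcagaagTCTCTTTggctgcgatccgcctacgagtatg
Snhg12: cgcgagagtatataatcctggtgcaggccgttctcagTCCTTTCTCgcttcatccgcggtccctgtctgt
Snhg3: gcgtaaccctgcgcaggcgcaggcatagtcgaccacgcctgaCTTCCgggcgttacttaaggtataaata

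The windows lie at chr1:161034561-161034630 and chr1:161035126-161035195 for Gas5, chr19:8723447-8723516 for Snhg1, chr2:167062894-167062963 for Zfas1, chr9:88522868-88522937 for Snhg5, chr3:123508307-123508376 for Snhg8, chr4:132308638-132308707 for Snhg12 and chr4:132353657-132353726 for Snhg3. Those of Snhg5, Snhg8 and Snhg3 are on the minus strand and the others on the plus strand. The run is 9 bases long in Snhg1 and Snhg12, 7 in Snhg8, 6 at the downstream start of Gas5, 5 in Snhg3, 4 in Zfas1 and 3 in Snhg5 and at the upstream start of Gas5. Over all 32851 RefSeq windows the median run was 3 bases, and 9.38% held one of 8 bases or more, as 2 of the 8 windows here do. The run of Snhg1 begins only at the fifth base of the transcript, while those of Snhg12, Snhg8 and the downstream start of Gas5 span the start. The annotated start need not be the base where transcription begins in these cells.

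The same windows, taken over their whole 300 bases, were searched for the cyclic AMP response element TGACGTCA and for its shorter form TGACG on either strand, since EP4 is known to signal through cyclic AMP. The full element was present at the downstream start of Gas5 alone among the 8 windows, against 1.79% of all RefSeq windows. The short form was present at 3 of the 8 windows, with 2 matches at the downstream start of Gas5 (both within the full element), 3 in Snhg8 and 2 in Snhg12, against 20.8% of all windows. A match of letters does not show binding, and the absence of one says only that these letters are not in the window.

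Each host also carries the snoRNAs it is known for, and the one with the highest mean FPKM among those named as snoRNAs in the files is given for each. Sequences are from GENCODE M21, written as DNA, 5′ to 3′. In the box C/D snoRNAs capitals mark the C box where it reads TGATGA and the last CTGA, the D box. In the box H/ACA snoRNAs they mark the last ACA.
Snord78: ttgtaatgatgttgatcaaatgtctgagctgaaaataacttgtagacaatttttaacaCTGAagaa
Snord22: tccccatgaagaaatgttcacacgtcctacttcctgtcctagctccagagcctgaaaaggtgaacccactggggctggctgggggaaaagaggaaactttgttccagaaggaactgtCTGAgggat
Snord12: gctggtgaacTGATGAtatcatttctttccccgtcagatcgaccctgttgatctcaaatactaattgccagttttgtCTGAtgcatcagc
Snord50b: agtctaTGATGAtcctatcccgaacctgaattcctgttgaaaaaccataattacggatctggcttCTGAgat
Snora24: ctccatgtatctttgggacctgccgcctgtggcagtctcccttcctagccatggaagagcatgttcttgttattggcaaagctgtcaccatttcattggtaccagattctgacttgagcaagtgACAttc
Snora61: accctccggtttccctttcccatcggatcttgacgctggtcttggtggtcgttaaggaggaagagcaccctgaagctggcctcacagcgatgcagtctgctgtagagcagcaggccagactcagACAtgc
Snord87: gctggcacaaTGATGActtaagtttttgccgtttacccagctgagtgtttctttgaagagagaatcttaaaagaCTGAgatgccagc
Snora73b: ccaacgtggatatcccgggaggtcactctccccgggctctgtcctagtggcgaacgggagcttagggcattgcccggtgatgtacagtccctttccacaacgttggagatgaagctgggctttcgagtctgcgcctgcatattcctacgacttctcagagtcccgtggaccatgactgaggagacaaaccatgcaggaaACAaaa

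Snord78 (chr1:161036984-161037049) lies in Gas5, Snord22 (chr19:8725866-8725991) in Snhg1 and Snord12 (chr2:167065276-167065365) in Zfas1. Snord50b (chr9:88521797-88521868) lies in Snhg5, Snora24 (chr3:123507937-123508066) in Snhg8 and Snora61 (chr4:132310240-132310369) in Snhg12. Snord87 (chr1:9942463-9942549) lies in Snhg6 and Snora73b (chr4:132352322-132352526) in Snhg3. In Snora24, Snora61 and Snora73b the ACA stands 3 bases before the 3′ end, the place that defines the class. Snord78 and Snord22 have no exact TGATGA in their annotated sequence.

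Most host transcripts were at a lower FPKM with EP4 agonist than with vehicle in each of the 3 same-numbered pairs of libraries, but the differences did not pass the test in the fit that ignores the replicate number. In that fit (limma on log2(FPKM + 1), Benjamini-Hochberg adjustment over the 12186 genes, threshold 0.05) 0 of the 8 rose or fell, against 0.394% of all tested genes called in either direction (48 genes), and 2 of the 8 had an unadjusted p below 0.05 where 1701 of all tested genes did. With the replicate number as a block, Snhg1, Snhg3, Snhg12, Snhg6 and Snhg5 fell, 5 of 8 against 6.41% of tested genes that fell in that fit, and none rose. Gas5, Snhg8 and Zfas1 did not pass in either fit on FPKM. The block was chosen from correlations within these same libraries, which favours smaller p-values, and with any 1 of the 3 pairs left out none of the 8 passed. In bulk RNA, fewer cells that express a gene and less of its RNA per cell cannot be told apart.

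The direction of the all-gene calls in the blocked fit depends on scaling. On the deposited FPKM 498 genes rose and 781 fell, after quantile normalization 519 rose and 478 fell, and after rescaling without mitochondrial and ribosomal RNA 555 rose and 538 fell. The same number of hosts, 5, fell under each of these scalings with the block. The median log2 fold change over the 8 hosts was -0.29, beside -0.03 over all tested genes. Within pairs 1, 2 and 3 the median difference of the hosts was -0.27, -0.30 and -0.28, beside -0.03 over all tested genes in each pair.

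**Figure D1:**
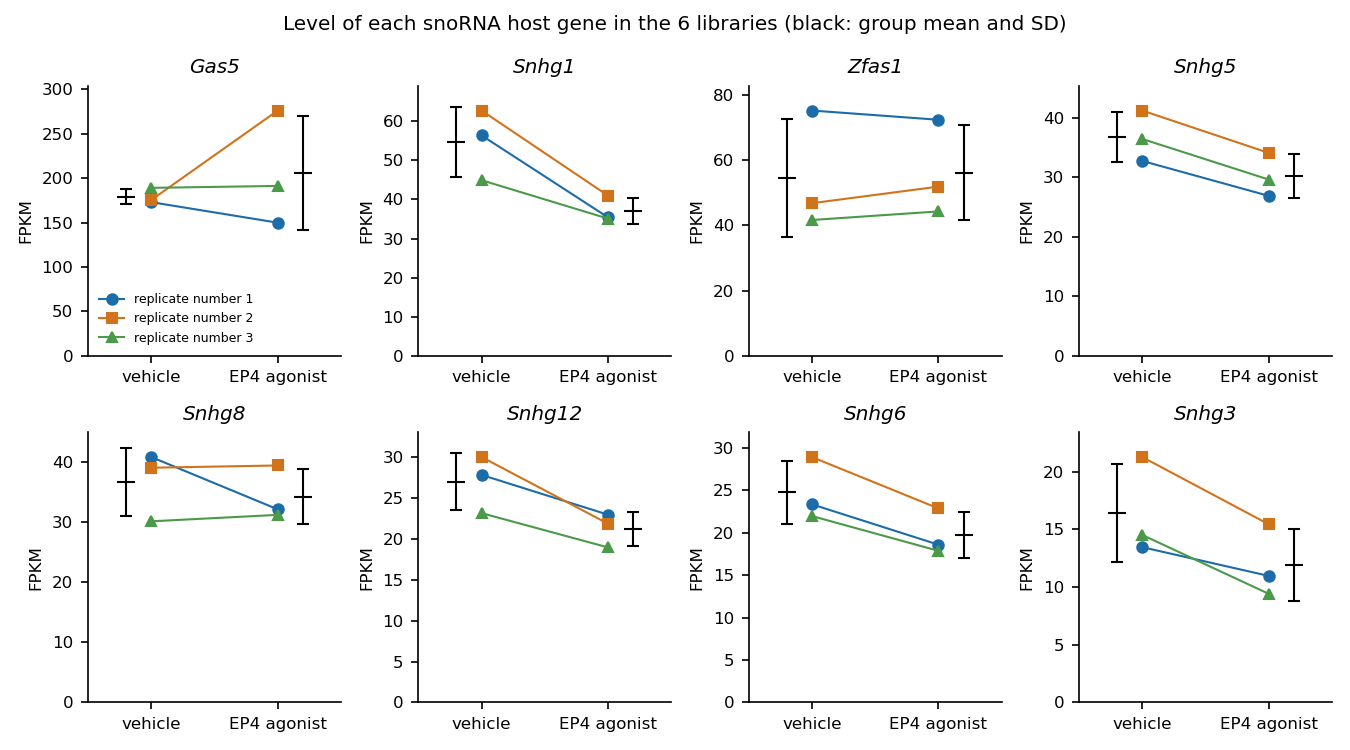
Each panel shows 1 host gene, with FPKM on the y axis and the vehicle and agonist libraries on the x axis; lines join libraries with the same replicate number, and black marks give the group mean and SD (n = 3). All 3 lines slope down for Snhg1, Snhg5, Snhg12, Snhg6 and Snhg3, while Gas5, Zfas1 and Snhg8 have lines in both directions.

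Snhg1 (chr19:8723475-8726443), the host of the U22 snoRNA and of a series of box C/D snoRNAs, had the largest log2 fold change of the 8 on FPKM with all libraries, though on coverage Snhg3 was level with it at -0.36. Its FPKM was 56.4, 62.7 and 44.9 in vehicle replicates 1, 2 and 3 and 35.4, 41.0 and 35.1 in agonist replicates 1, 2 and 3. Every agonist library was below every vehicle library. The mean was 54.7 ± 9.03 FPKM in vehicle (SD, n = 3) and 37.2 ± 3.303 FPKM with agonist (SD, n = 3), 32.0% lower by value, and the log2 fold change was -0.54 (SE 0.13). By limma the adjusted p was 0.168 unblocked and 0.0245 with the block. The exact two-sided permutation p was 0.1, the smallest that 3 against 3 libraries can give. On scaled coverage the difference was smaller, 19.8 ± 2.29 in vehicle and 15.2 ± 1.56 with agonist (SD, n = 3 each), 23.0% lower by value, with a log2 fold change of -0.36 and again no overlap (limma adjusted p = 0.209 without and 0.0121 with the block).

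Snhg12 (chr4:132308678-132311024), which carries 3 box H/ACA snoRNAs and Snord99, was the other gene whose groups did not overlap. Its FPKM was 27.8, 29.99 and 23.1 in the vehicle libraries and 22.9, 21.8 and 18.9 in the agonist libraries. The lowest vehicle library and the highest agonist library were nearly level. The log2 fold change was -0.33 (SE 0.12), with an adjusted p by limma of 0.294 without the block and 0.0345 with it, and the exact permutation p was again 0.1. Groups without overlap and lower with agonist were found for 2 of the 8 hosts, against 12.1% of all tested genes.

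Snhg3 (chr4:132348014-132353686), the host of the U17 snoRNAs Snora73a and Snora73b, lies on the same chromosome as Snhg12 and on the opposite strand. Its FPKM was 13.5, 21.3 and 14.5 in the vehicle libraries and 10.96, 15.4 and 9.41 in the agonist libraries. The groups overlapped, because agonist replicate 2 was above vehicle replicates 1 and 3, but each agonist library was below its own pair. The log2 fold change was -0.43 (SE 0.21), with an adjusted p by limma of 0.428 without the block and 0.0345 with it. Without vehicle replicate 2 the log2 fold change was -0.24, and without agonist replicate 3 it was -0.29. Snhg3 overlaps Rcc1 on the same strand over 5592 bases, so their reads may not have been told apart fully. Rcc1, which codes for the exchange factor of the Ran GTPase, was at 31.3, 46.0 and 42.4 FPKM in vehicle and 24.8, 32.4 and 29.98 FPKM with agonist, and fell in the blocked fit too (limma adjusted p = 0.303 without and 0.0214 with the block).

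Snhg6 (chr1:9941959-9944118), the host of Snord87, and Snhg5 (chr9:88521050-88522929), the host of the Snord50 pair, had the most even differences across pairs. The FPKM of Snhg6 was 23.3, 28.9 and 21.95 in the vehicle libraries and 18.6, 22.9 and 17.9 in the agonist libraries. The FPKM of Snhg5 was 32.8, 41.2 and 36.4 in the vehicle libraries and 26.9, 34.1 and 29.6 in the agonist libraries. In both genes agonist replicate 2 reached into the range of the vehicle libraries, so the groups overlapped. Their differences within pairs 1, 2 and 3 on the log2(FPKM + 1) scale were -0.31, -0.33 and -0.28 for Snhg6 and -0.28, -0.27 and -0.29 for Snhg5. The fold change of Snhg6 was -0.31 on the log2 scale (SE 0.13, limma adjusted p = 0.364 without and 0.0253 with the block). That of Snhg5 was -0.28 (SE 0.12, limma adjusted p = 0.359 without and 0.0275 with the block).

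Snhg8 (chr3:123507552-123508404), the host of Snora24, differed mainly in pair 1. Its FPKM was 40.9, 39.1 and 30.2 in the vehicle libraries and 32.2, 39.5 and 31.3 in the agonist libraries. Pair 1 differed by -0.34 on the log2(FPKM + 1) scale and pairs 2 and 3 by 0.01 and 0.05, and the groups overlapped over most of their range. The log2 fold change was -0.09 (SE 0.14, limma adjusted p = 0.821 without and 0.544 with the block).

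Zfas1 (chr2:167062934-167065862), which starts head to head with Znfx1 and hosts Snord12, varied between replicates far more than between treatments. Its FPKM was 75.3, 46.8 and 41.7 in the vehicle libraries and 72.4, 51.9 and 44.3 in the agonist libraries. Replicate 1 was high in both groups, and the groups overlapped fully. The coefficient of variation within vehicle was 33.1%, the highest of the 8 genes in that group. The log2 fold change was 0.06 (SE 0.25, limma adjusted p = 0.944 without and 0.532 with the block).

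Lower with agonist in all 3 pairs were 5 of the 8 hosts on FPKM, against 31.6% of all tested genes on FPKM. On deposited coverage 6 of the 8 were, and the share of all tested genes on coverage was not computed. Coverage, a further column of the deposited tables that the sources used here do not define, was brought to the FPKM scale with the 1 constant of each library. With coverage and the block, 6 of the 8 fell, against 10.7% of tested genes that fell, the sixth being Gas5. Without the block no host passed on coverage either.

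**Figure D2:**
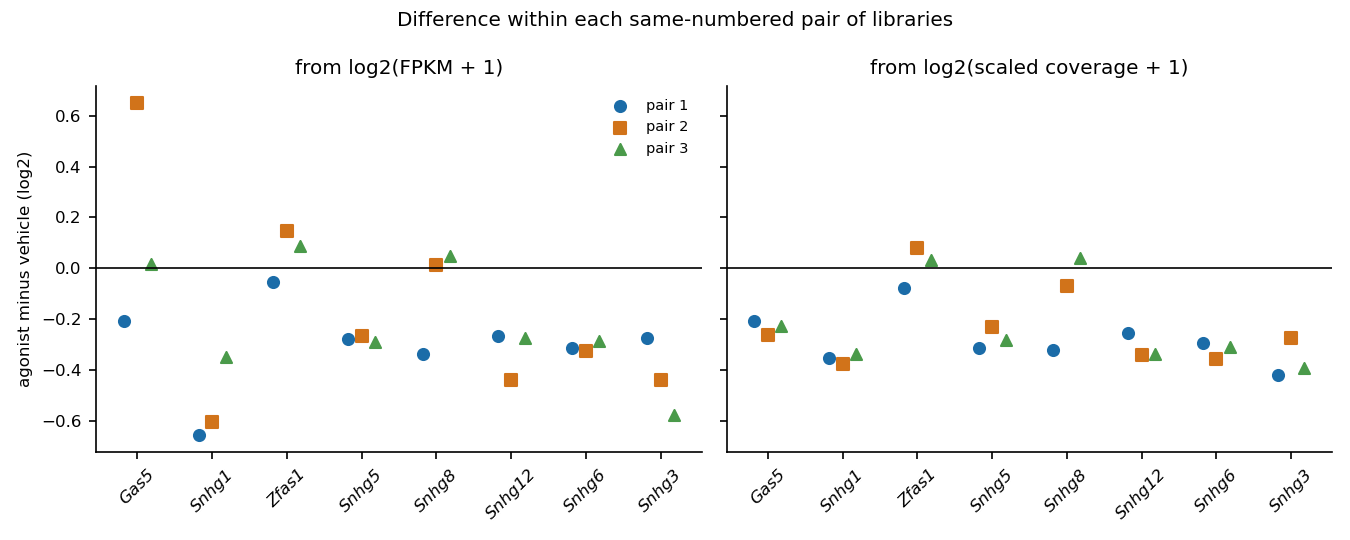
Agonist minus vehicle difference (log2) of each host gene within replicate pairs 1, 2 and 3, from FPKM on the left and from scaled coverage on the right. The 5 hosts that fell in the blocked fit lie below 0 in all pairs on both sides, and Gas5 does so on coverage only.

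Gas5 (chr1:161034422-161038539), the most abundant of the 8, gave different answers in different readouts. On FPKM it was 173, 175 and 189 in the vehicle libraries and 149.8, 276 and 191 in the agonist libraries. Agonist replicate 1 was the lowest library and agonist replicate 2 by far the highest. The mean was 179 ± 8.68 FPKM in vehicle and 206 ± 64.3 FPKM with agonist (SD, n = 3 each), and the log2 fold change was 0.15 (SE 0.20, limma adjusted p = 0.786 without and 0.598 with the block). Without agonist replicate 2 the log2 fold change was -0.08 (limma adjusted p = 0.829).

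On scaled coverage Gas5 was 59.3, 63.6 and 49.4 in the vehicle libraries and 51.3, 53.0 and 42.1 in the agonist libraries. Each agonist library was below its own pair, by -0.21, -0.26 and -0.23 on the log2(coverage + 1) scale, though the groups overlapped. The log2 fold change on coverage was -0.23 (SE 0.13 without and 0.04 with the block), with a limma adjusted p of 0.445 without the block and 0.0227 with it. The ratio of FPKM to scaled coverage was 2.92, 2.76 and 3.83 in the vehicle libraries and 2.92, 5.21 and 4.54 in the agonist libraries, so that the FPKM of Gas5 differed between libraries in a way its coverage did not. The ratio varied in other hosts too, over a smaller range. For Snhg1 it was 2.96, 2.81 and 2.50 in vehicle and 2.41, 2.41 and 2.50 with agonist, for Snhg3 it ran from 2.22 to 2.83, and for Snhg5 from 1.86 to 1.95. GENCODE M21 lists 25 transcripts of Gas5, from 346 to 2556 bases long, against 3 to 18 for the other hosts; whether the division of reads among them sets the FPKM was not tested.

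A further readout is the locus that the authors' program assembled over Gas5 from each library's own reads. It was at 582, 486 and 353 FPKM in the vehicle libraries and at 333, 392 and 343 FPKM in the agonist libraries. Vehicle replicates 1 and 2 were the highest, and every agonist library was below its own pair, with a small gap in pair 3. This locus is defined anew in each library, so its values were not tested.

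**Figure D3:**
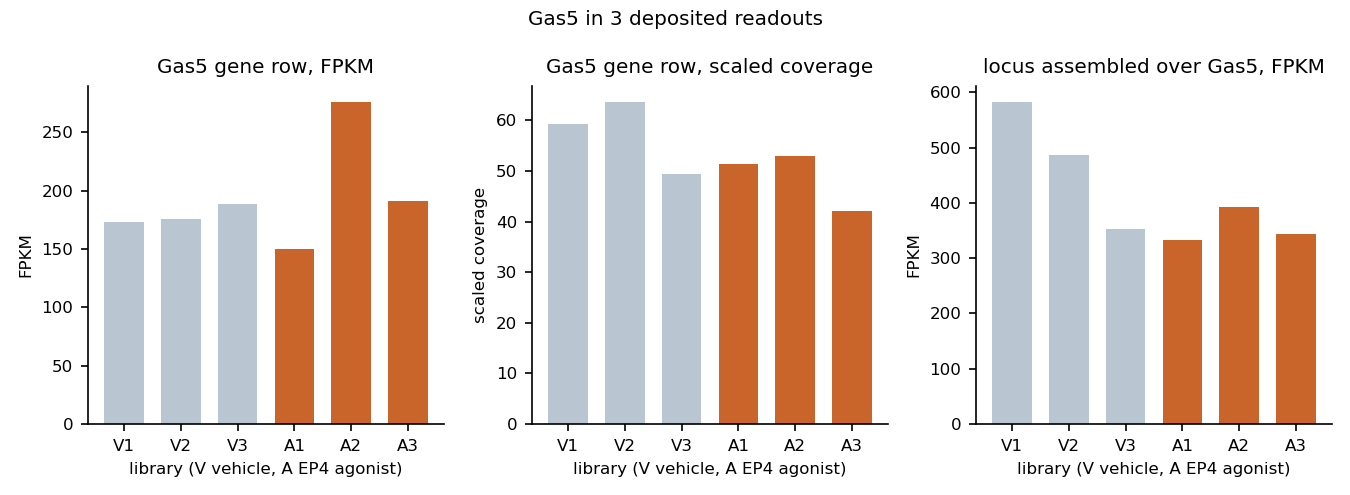
Bars give Gas5 in each of the 3 vehicle (V) and 3 agonist (A) libraries, as FPKM of the reference gene, as scaled coverage of the reference gene and as FPKM of the locus assembled over it. Agonist replicate 2 stands out at 276 FPKM on the left only; in the middle panel it is at 53.0, below its vehicle pair at 63.6.

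By level, Gas5 stood above all other hosts in both groups, with no overlap of its libraries with those of the next gene. In vehicle cells the order on mean FPKM was Gas5 at 179, Snhg1 at 54.7, Zfas1 at 54.6, Snhg5 at 36.8, Snhg8 at 36.7, Snhg12 at 27.0, Snhg6 at 24.7 and Snhg3 at 16.4. Snhg1 and Zfas1 overlapped in their library values, as did Snhg5 and Snhg8, and Snhg12 and Snhg6, so the order within those pairs is not resolved. With agonist Zfas1 at 56.2 FPKM came second, and its libraries did not overlap with those of Snhg1 at 37.2 FPKM. On scaled coverage Snhg8 had the second highest mean in both groups, at 22.3 in vehicle, where its libraries overlapped those of Snhg1 at 19.8, and at 20.5 with agonist, where they did not overlap those of the next gene, Snhg5. The 8 genes together took 0.0948 to 0.104% of the summed reference FPKM in vehicle libraries and 0.0876 to 0.115% in agonist libraries.

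The files also list the snoRNAs themselves. 32 rows of annotated snoRNAs lie inside the 8 hosts on the same strand, 10 in Gas5, 8 in Snhg1, 5 in Snhg12, 3 in Zfas1, 2 each in Snhg5 and Snhg3, and 1 each in Snhg8 and Snhg6. Of these, 17 carry a snoRNA name, and the others, annotated as snoRNAs too, carry the names of gene models or, for 1 row in Gas5, the microRNA name Mir5117. Mature snoRNAs have no poly(A) tail and are short, and 30 of the 32 rows overlap an exon of some annotated transcript of the host, so their FPKM can include reads of the host. They are therefore read here as signal inside the hosts' loci and not as the level of mature snoRNAs.

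All 32 rows passed the filter, and 0 of them rose or fell without the block (limma). With the block 8 of the 32 fell and none rose, where 6.41% of all tested genes fell. Of the 8, 4 lie in Gas5, 2 in Snhg1 and 2 in Snhg5. Lower in all 3 pairs were 18 of the 32 rows, against 39 of the other 125 tested snoRNA rows and 31.6% of all tested genes. Some of the 32 rows overlap each other, so they are not all separate units. The median difference over the 32 rows was -0.38, -0.52 and -0.38 within pairs 1, 2 and 3 on the log2(FPKM + 1) scale. The other 125 tested snoRNA rows had medians of -0.22, -0.28 and -0.22, and with the block 9 of them fell and 2 rose.

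In Gas5 the row of Snord78 was at 32.4, 61.0 and 38.3 FPKM in the vehicle libraries and 24.02, 49.0 and 23.3 FPKM in the agonist libraries. Replicate 2 was the highest of each group, the agonist library was below vehicle in each pair, and the groups overlapped. The row fell with the block (limma adjusted p = 0.0360, and 0.561 without). All 10 rows in Gas5 were lower with agonist in pair 2, where Gas5 itself was at 175 FPKM in vehicle and 276 FPKM with agonist. In pairs 1 and 3 the count of lower rows was 7 and 9 of 10. Gas5 itself was nearly level in pair 3, at 189 FPKM in vehicle and 191 FPKM with agonist. The 2 rows named Snord80 overlap and share their reads.

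In Snhg5 both box C/D rows fell with the block. Snord50a was at 1.94, 2.81 and 2.41 FPKM in the vehicle libraries and 0.837, 1.56 and 1.65 FPKM in the agonist libraries, without overlap of the groups (limma adjusted p = 0.0432 with and 0.271 without the block). Snord50b was at 2.08, 3.56 and 2.46 FPKM in vehicle and 1.03, 2.33 and 1.71 FPKM with agonist, with an overlap at agonist replicate 2 (limma adjusted p = 0.0458 with and 0.400 without the block). Both are at low FPKM, where the log2(FPKM + 1) scale understates a change.

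The remaining named rows did not pass in either fit. In Snhg1, Snord22 was at 8.13, 17.5 and 13.3 FPKM in vehicle and 8.045, 11.8 and 9.90 FPKM with agonist, level in pair 1 and lower with agonist in pairs 2 and 3. In Snhg3, Snora73b was at 3.83, 8.38 and 6.30 FPKM in vehicle and 4.84, 5.34 and 4.06 FPKM with agonist, higher with agonist in pair 1. Snora24 in Snhg8 was at 2.92, 8.35 and 4.73 FPKM in vehicle and 3.68, 3.91 and 4.65 FPKM with agonist. For these 3 rows the groups overlapped.

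The 5 named rows in Snhg12 include Snora61, at 4.36, 6.57 and 4.82 FPKM in vehicle and 2.98, 6.61 and 2.12 FPKM with agonist. Its pair 2 was level while pairs 1 and 3 were lower with agonist. In Snhg6, Snord87 was at 3.17, 5.33 and 2.28 FPKM in vehicle and 0.549, 3.17 and 2.21 FPKM with agonist, lower in every pair. In Zfas1, Snord12 was at 3.62, 6.71 and 4.61 FPKM in vehicle and 2.57, 6.75 and 3.87 FPKM with agonist. Across the 32 rows the median FPKM was highest in vehicle replicate 2, at 8.37, and second highest in agonist replicate 2, at 6.68, against 3.85 to 6.52 in the other 4 libraries; the part of this between-library difference in the pair values was not tested.

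**Figure D4:**
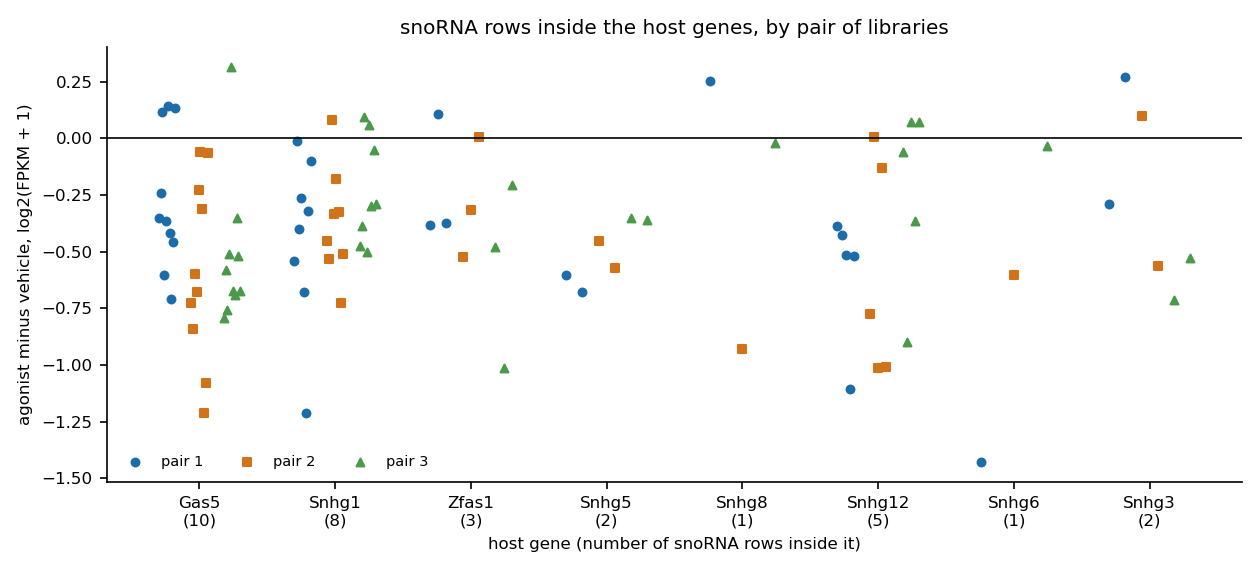
Each point is 1 snoRNA row inside a host, placed by host on the x axis with the agonist minus vehicle difference in log2(FPKM + 1) on the y axis, and marked by replicate pair. Most points lie below 0, 26, 28 and 27 of 32 in pairs 1, 2 and 3.

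Other non-coding snoRNA hosts were measured for 12 of 13 listed genes, of which 8 were tested. The row named Snhg7 spans 139 bases and has the biotype snoRNA, so it does not stand for a host transcript. With the block 2 of the 8 fell and 0 rose, where 6.41% of all tested genes fell, and without it none passed (limma). Snhg4 was at 7.06, 10.7 and 9.25 FPKM in vehicle and 4.80, 7.76 and 6.79 FPKM with agonist (limma adjusted p = 0.0227 with and 0.377 without the block). Snhg16 was at 7.53, 7.94 and 6.07 FPKM in vehicle and 5.85, 4.65 and 4.39 FPKM with agonist, without overlap (limma adjusted p = 0.0426 with and 0.216 without the block). Snhg15, Epb41l4aos, Snhg20 and Snhg17 did not pass in either fit on FPKM, although the libraries of Snhg17 did not overlap, at 7.47, 7.14 and 4.87 FPKM in vehicle and 3.43, 4.10 and 3.83 FPKM with agonist. The median log2 fold change of the 8 was -0.25, and -0.27 for the 7 without the Snhg7 row. Of the 14 other tested genes of a non-coding biotype that hold an annotated snoRNA on their strand, 3 fell and 0 rose with the block. These 3 were AI506816, Snhg16, already counted above, and Cct6a. Cct6a codes for a chaperonin subunit and is counted again among the protein-coding hosts below. The 14 include several of the listed genes, and their median log2 fold change was -0.18. Lower in all 3 pairs were 7 of the 14, against 31.6% of all tested genes. The most abundant of the 14, 2410006H16Rik, had a log2 fold change of 0.06 and did not pass in either fit.

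Transcripts of the proteins that bind the snoRNAs were examined next. Of the 4 core proteins of the box C/D particle, Nop56 and Snu13 fell with the block and none rose, where 6.41% of all tested genes fell. Nop56, the scaffold protein of the particle, was at 85.6, 116 and 101 FPKM in vehicle and 65.9, 87.8 and 77.2 FPKM with agonist (limma adjusted p = 0.0187 with and 0.307 without the block). Snu13, which binds the kink-turn of the guide RNA, was at 48.6, 62.9 and 56.6 FPKM in vehicle and 37.9, 49.5 and 48.0 FPKM with agonist. The methyltransferase gene Fbl was at 54.2, 73.1 and 95.9 FPKM in vehicle and 38.8, 70.4 and 32.0 FPKM with agonist and did not pass, nor did Nop58 at 12.3, 17.2 and 15.97 FPKM in vehicle and 10.7, 14.3 and 14.2 FPKM with agonist. All 4 were lower in each of the 3 pairs, and on coverage with the block all 4 fell, Fbl and Nop58 with a limma adjusted p of 0.0136 each, against 10.7% of tested genes.

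Of the 4 core proteins of the box H/ACA particle, 3 fell with the block and none rose, beside the same 6.41% of all tested genes. Dkc1, the pseudouridine synthase, was at 23.9, 38.3 and 32.4 FPKM in vehicle and 18.2, 24.1 and 23.4 FPKM with agonist (limma adjusted p = 0.0247 with and 0.303 without the block). Nhp2 was at 42.5, 68.1 and 57.1 FPKM in vehicle and 30.4, 49.3 and 36.7 FPKM with agonist. Gar1 was at 26.5, 40.2 and 36.6 FPKM in vehicle and 17.9, 30.9 and 24.2 FPKM with agonist. Nop10, at 25.1, 22.9 and 20.95 FPKM in vehicle and 16.9, 20.3 and 19.0 FPKM with agonist, did not pass although its groups did not overlap. The median log2 fold changes were -0.35 for the box C/D and -0.49 for the box H/ACA proteins.

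The 12 assembly and trafficking factors had a median log2 fold change of -0.20. Where 6.41% of all tested genes fell with the block, 5 of the 12 fell and none rose. These were Nolc1 and Tcof1, nucleolar phosphoproteins, the helicase subunit Ruvbl2, the box C/D assembly factor Znhit6 and the box H/ACA assembly factor Shq1. Nolc1 was at 22.7, 40.6 and 34.3 FPKM in vehicle and 16.9, 24.8 and 22.8 FPKM with agonist (limma adjusted p = 0.0210 with and 0.335 without the block). Ruvbl2 was at 39.7, 51.5 and 45.6 FPKM in vehicle and 29.6, 36.1 and 33.9 FPKM with agonist, without overlap of the groups. Rpap3, a co-chaperone of the same assembly pathway, was the 1 factor higher in every agonist library than in any vehicle library, at 14.5, 15.4 and 16.5 FPKM in vehicle and 17.0, 17.1 and 18.4 FPKM with agonist, and did not pass on FPKM.

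Genes whose products are known to act on the host transcripts after they are made gave no calls on FPKM. With the block 6.41% of all tested genes fell and 4.09% rose. Of 21 nonsense-mediated and 5′ decay factors 0 rose or fell in either fit on FPKM, and their median log2 fold change was -0.04. Upf1, the central helicase of that pathway, was at 33.7, 42.5 and 40.4 FPKM in vehicle and 34.2, 35.2 and 34.6 FPKM with agonist, and its groups overlapped. Of 11 genes of the mTORC1 and LARP1 axis, which controls translation of TOP mRNAs, 0 rose or fell in either fit, with a median of -0.02. Larp1, which binds the TOP tract, was at 47.3, 51.4 and 53.0 FPKM in vehicle and 47.1, 46.1 and 51.7 FPKM with agonist. RNA levels say nothing of the activity of these proteins.

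Protein-coding snoRNA hosts, most of them ribosomal protein and translation factor genes with TOP starts, were listed as well. Of 32 tested, 3 fell with the block and none rose, beside 6.41% and 4.09% of all tested genes that fell and rose in that fit, and the median log2 fold change was -0.02. Among all 196 tested protein-coding genes that hold an annotated snoRNA on their strand, 21 fell and 5 rose with the block, with a median of -0.05. The 3 were Eif4a1, a translation initiation helicase, Ncl, the nucleolar protein nucleolin, and Cct6a, a chaperonin subunit that GENCODE M21 classes as a processed transcript. Ncl was at 97.1, 148 and 135 FPKM in vehicle and 79.2, 99.8 and 97.3 FPKM with agonist (limma adjusted p = 0.0275 with and 0.321 without the block). Among the most abundant, Tpt1 was at 2447, 1951 and 1965 FPKM in vehicle and 2349, 2168 and 2260.4 FPKM with agonist, and Rpl4 at 1527, 1480.4 and 1458 FPKM in vehicle and 1509, 1456 and 1426 FPKM with agonist, and neither passed. The difference between these lists and the 8 hosts was not tested.

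**Figure D5:**
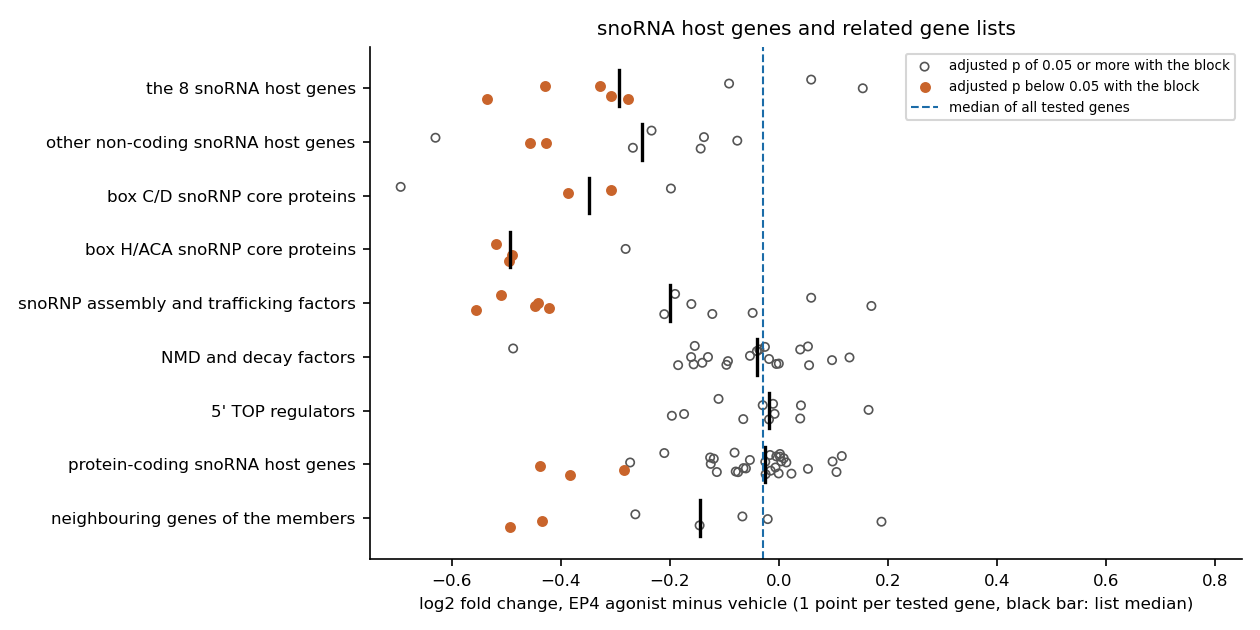
Each point is the log2 fold change (agonist minus vehicle) of 1 tested gene, by list; filled points had a limma adjusted p below 0.05 with the replicate block, black bars are list medians and the dashed line is the median of all tested genes. The 8 hosts have a median of -0.29, the protein-coding hosts one of -0.02.

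Neighbouring genes were examined because several hosts share a start region or sequence with them. Of 9 neighbours 7 were tested, and Rcc1 and Wdr74 fell with the block, where 6.41% of all tested genes fell. Wdr74, whose product acts in ribosome assembly and which lies 9395 bases from Snhg1 on the same strand, was at 18.7, 23.3 and 20.2 FPKM in vehicle and 12.8, 17.9 and 12.9 FPKM with agonist (limma adjusted p = 0.0226 with and 0.215 without the block). Slc3a2, which codes for the heavy chain of amino acid transporters, starts 105 bases from Snhg1 on the opposite strand. It was at 48.6, 43.5 and 43.7 FPKM in vehicle and 54.2, 40.5 and 36.6 FPKM with agonist and did not pass, so across this short gap Snhg1 was lower in every agonist library while Slc3a2 was higher with agonist in pair 1 and lower in pairs 2 and 3.

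Znfx1 overlaps Zfas1 by 82 bases on the opposite strand and was at 5.98, 5.44 and 6.24 FPKM in vehicle and 6.42, 5.34 and 5.63 FPKM with agonist. Replicate 1, the highest of each group for Zfas1, was the highest for Znfx1 in the agonist group and the middle one in the vehicle group. Zbtb37, on the strand opposite Gas5 and overlapping it by 428 bases, was at 3.02, 1.47 and 1.65 FPKM in vehicle and 3.25, 2.28 and 1.80 FPKM with agonist. Trnau1ap, 738 bases from Snhg12, was at 18.6, 19.1 and 21.4 FPKM in vehicle and 19.1, 18.7 and 15.5 FPKM with agonist. Syncrip, 38475 bases from Snhg5, was at 34.3, 50.001 and 48.4 FPKM in vehicle and 35.5, 40.3 and 33.1 FPKM with agonist. None of these 4 passed on FPKM, and Tcf24 and Prss12, next to Snhg6 and Snhg8, were at or below 0.736 FPKM and were not tested.

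The profile of the hosts over the 6 libraries, the mean of their centred log2(FPKM + 1) values, was 0.14, 0.24 and -0.05 in the vehicle libraries and -0.16, 0.08 and -0.25 in the agonist libraries. Replicate 2 was the highest of each group and replicate 3 the lowest. Snhg6 and Snhg8 lay closest to this profile, at a root-mean-square distance of 0.0741 and 0.0957, and Zfas1 and Gas5 farthest, at 0.354 and 0.293. Among 6112 other genes with a mean of at least 10 FPKM the 5 nearest were Haus7, Il12rb1, Rpl36al, Txn2 and Ndufs8, at distances of 0.0287 to 0.0533, where the median gene lay at 0.201. Haus7 was at 16.3, 17.5 and 14.6 FPKM in vehicle and 12.8, 15.4 and 12.5 FPKM with agonist. With 6 libraries this likeness is a description only.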

How the data were processed

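Splenic nTregs were profiled by RNA sequencing in 6 libraries, 3 per treatment. Reads were processed with Trim Galore and HISAT2 on mm10, per the submitters' processing notes; for versions, abundance program, annotation and strand, the entry is "not given in the sources used here". The deposited tables hold FPKM and coverage per gene, made by the authors and used as given. The deposited coverage, a signal per gene, stands in a constant ratio to FPKM for 38.4 to 39.1% of rows of a library, and dividing by that constant gave the scaled coverage. Fragment counts could not be recovered, so no counting interval is given and precision is the spread between libraries. Deposited TPM was not used. The deposited rows gave 47643 reference genes, 47224 of them in GENCODE M21.

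Values were analysed as log2(FPKM + 1), which understates changes of low genes, for the 12186 genes that reached FPKM 1 in 3 libraries. The test was limma 3.58.1 (trend, robust, statmod 1.5.0, R 4.3.3), tested on simulated data, with Benjamini-Hochberg adjustment and a threshold of 0.05. The simulated data held no difference between replicate pairs, so they do not bear on the pairing behind the blocked calls. Single genes also had an exact two-sided permutation test. "Rose" and "fell" refer to limma. Tables and plots used Python 3.11.15, pandas 2.3.3, numpy 2.4.6 and matplotlib 3.10.9. Same-numbered libraries of the 2 groups deviated together (correlations 0.512, 0.404 and 0.321; others -0.353 to 0.002; limit 0.1), so the numbers were taken to pair them, which the labels do not state. The unblocked fit is the main one. Where the call differs the blocked call is given too, with adjusted p-values for some of the genes only.

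The members, gene lists and tests were chosen with earlier results of these data known. Named were all 8 hosts, the snoRNA rows inside them, their neighbours, the 5 genes nearest in profile, and in each list the genes that passed with or without the block and up to 4 others by mean FPKM, of which some are given as counts. 23 alternatives were run, 4 of them chosen after seeing the data (the block combined with coverage, with quantile normalization, with rescaling and with a pseudocount of 0.1).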

Additional observations from a re-analysis of the deposited data

How the results depend on the processing

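Without the replicate block, 0 of the 8 hosts and 0 of the 99 tested list genes passed under any of the pseudocounts, filters, scalings, limma settings or left-out libraries tried. The number of hosts that passed was 5 with the replicate block, also with the block and quantile normalization, the block and rescaling, or the block and a pseudocount of 0.1, and 6 with the block and coverage. It was 0 with the block when any pair was left out, where all-gene calls also dropped to between 0 and 241. Of the list genes 17 passed with the replicate block and with the block and a pseudocount of 0.1, 16 with quantile normalization, 15 with rescaling, 24 with coverage, 4 with the block without pair 1 and 0 without pair 2 or 3, all lower except 1 on coverage. The median of the hosts stayed below 0 throughout, from -0.36 without agonist replicate 2 to -0.19 without vehicle replicate 2. Snhg1, Snhg12, Snhg3, Snhg5 and Snhg6 stayed below 0 in each setting, with Snhg1 between -0.67 and -0.36.

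Directions turned for 3 hosts. Gas5 was 0.15 on FPKM and -0.23 on coverage (with or without the block), -0.0947 with the block without pair 2, and between -0.0801 (without agonist replicate 2) and 0.358 (without agonist replicate 1) when 1 library was left out. Zfas1 was 0.06 and turned to -0.14 without agonist replicate 1, -0.03 without vehicle replicate 2 and -0.11 without vehicle replicate 3, the highest being 0.311 without vehicle replicate 1. Snhg8 was -0.09 and turned to 0.0312 with the block without pair 1. The cause was not tested.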
